A study of Mus musculus with 8 samples.

Results

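Genes that mark B cells and plasma cells were examined in ileal tumours of mice. The set held 9 genes, and probes were taken by their symbol in the deposited annotation. Of these genes, 8 had a probe, among the 18138 gene symbols of the table, with 11 of its 25697 probes, and no probe carried the symbol Cd79a. The B cell genes were Cd79a, Cd79b, Ms4a1, Cd22, Faim3 and Pou2af1, and the plasma cell genes were Igj, 2010001M09Rik and Tnfrsf17. The set was chosen for the cell types the genes mark and was examined with these arrays' earlier results known.

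RNA was measured on 4 arrays of tumours from APCmin/+/VP16LXRa mice and on 4 of tumours from APCmin/+/VP16 mice, which are the controls. Both groups carried the Min mutation in one Apc allele, which gives rise to intestinal tumours, on a mixed C57BL/6J-FVBN background at 8 months of age. VP16LXRa is the liver X receptor alpha, a sterol-activated nuclear receptor, joined to the VP16 activation domain of a virus, and the controls carry VP16 without the receptor. The labels name neither the promoter that drives VP16LXRa or VP16 nor the sex of the mice, and do not say whether tumours were pooled. They also do not say that the arrays came from different mice, so the p-values reflect array-to-array spread, which may be technical. Illumina bead signals were background-corrected, quantile-normalized and put on a log2 scale, and every level below is on that scale, on which 1 unit is a doubling. A probe counts as detected on an array where its detection p-value is under 0.05.

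Between 49.0% and 54.7% of probes were detected on each array. VP16LXRa 5 stood apart, with a median correlation to the other arrays of 0.869, against 0.910 to 0.942 for the other 7. The array was the highest of the 8 for 26.7% of all tested genes. The tissue label was checked against its markers. All 10 intestinal epithelium markers that had a probe were tested. Krt8, a keratin of simple epithelia, and Fabp6, the ileal bile acid binding protein, were detected on all 8 arrays. By contrast, Slc10a2, the ileal bile acid transporter, and Fabp2, also on the ileal enterocyte list, were detected on none.

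B cells recognise antigen through a surface immunoglobulin that signals by way of the Cd79a and Cd79b chains. In the small intestine they gather in Peyer's patches and isolated lymphoid follicles, and their descendants, the plasma cells of the lamina propria, secrete dimeric IgA that is held together by the J chain. Ms4a1 (CD20) and Cd22 are surface proteins of B cells, Cd22 a sialic acid-binding inhibitor of the antigen receptor. Faim3, now named Fcmr, is a receptor for IgM. Pou2af1 is a coactivator of the octamer-binding transcription factors in B cells and plasma cells. Igj, now Jchain, encodes the J chain, 2010001M09Rik, now Mzb1, encodes an endoplasmic reticulum protein that helps to assemble secreted immunoglobulin, and Tnfrsf17 encodes BCMA, a survival receptor of plasma cells.

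No gene of the set differed between VP16LXRa and control tumours past the threshold. The spread of the B cell genes lay mostly within the control group, in which 1 array, control 2, had levels far above the other 3. The plasma cell genes split. 2010001M09Rik was highest in control 2 like the B cell genes, whereas Igj was highest in VP16LXRa 6 and Tnfrsf17 was nearly as high there as in control 2. These arrays hold RNA of whole tumours, so fewer cells of a type and less RNA per cell cannot be told apart.

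Of the 11 probes, 10 were detected on at least 1 array, where 68.3% of all probes were. Detection on at least 4 of the 8 arrays, which admitted a probe to the test, was met by 8 of the 11 and by 52.2% of all probes. These 8 stood for 7 of the 9 genes. With limma and Benjamini-Hochberg adjustment over 13426 tested probes, 0 of the 8 passed an adjusted p under 0.05, and 0 of all tested probes did (0%). At an unadjusted p under 0.05 there were 0 of the 8 and 2.53% of all tested probes. The adjusted p from limma was 0.998 for each of the 8 probes, and their smallest unadjusted p, that of a Cd79b probe, was 0.108. The 2 groups overlapped for all 8 probes, where 1.74% of tested probes had groups that did not overlap.

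The 4 tested B cell genes were lower in VP16LXRa tumours on average, each by its brightest tested probe, with a median log2 difference of -1.13, where the median over all 10054 tested genes was 0.022. Without control 2 that median was -0.27, with 2 of the 4 lower. Of all 7 tested genes of the set, 5 were lower with all arrays and 3 without control 2, and the share of tested probes that were lower was 49.8% and 49.9%. With control 2 and VP16LXRa 5 both left out, the median of the B cell genes was -0.55. The size of the median thus depended on control 2, and the direction of 2 of the 4 genes did too.

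The sequences before the transcription starts of 4 members are shown, chosen by the brightest tested probe. The candidates were the tested genes whose promoter window was searched. The 4 shown are those whose level in control 2 lay farthest above the other controls (Faim3 and Cd22) and least far (Tnfrsf17 and Igj). Pou2af1 was the only other candidate. Each is 100 bases long and ends at the base before the annotated start, read 5′ to 3′ on the gene's strand from the RefSeq promoter table of GRCm38.p6. The capitals mark a match to the core bound by the B cell factor EBF1, searched as TCCC, any 2 bases and GGGA.
Faim3, plus strand of chr1:130865677-130865776: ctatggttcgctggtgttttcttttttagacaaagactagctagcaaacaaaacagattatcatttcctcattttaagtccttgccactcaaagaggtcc
Cd22, minus strand of chr7:30879029-30879128: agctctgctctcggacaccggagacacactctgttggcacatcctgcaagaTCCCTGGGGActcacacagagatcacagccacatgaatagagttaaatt
Tnfrsf17, plus strand of chr16:11313709-11313808: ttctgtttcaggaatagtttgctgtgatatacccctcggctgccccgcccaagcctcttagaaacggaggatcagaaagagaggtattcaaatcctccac
Igj, minus strand of chr5:88527898-88527997: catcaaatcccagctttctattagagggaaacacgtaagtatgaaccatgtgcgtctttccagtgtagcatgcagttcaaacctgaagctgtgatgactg

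Promoter windows from 250 bases before to 50 bases after the start were searched for 6 members. These were Cd79a, Cd22, Faim3, Pou2af1, Igj and Tnfrsf17. A window of 2010001M09Rik was not looked for, and none was held for Cd79b or Ms4a1. The EBF core, which reads the same on both strands, occurred in 1 of the 6, that of Cd22, between 49 and 40 bases before the start. It occurred in 0.904% of the 32851 promoter windows of the table. The octamer ATGCAAAT, searched on both strands, occurred in 0 of the 6 and in 1.74% of all windows. Neither search says whether a factor binds there.

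Cd79b, the beta chain of the antigen receptor, was measured by 2 tested probes. The brighter one read 8.24, 7.14, 6.54 and 5.97 in VP16LXRa 5 to 8, against 7.59, 11.54, 6.62 and 8.46 in controls 1 to 4. Control 2 stood 3.08 above the next array, which is 8.47-fold. The other 7 arrays ran from 5.97 to 8.46 with both groups interleaved. The means were 6.98 ± 0.97 in VP16LXRa and 8.55 ± 2.13 in control tumours (SD, n = 4 each), a difference of -1.58 (SE 0.96, 95% interval -3.74 to 0.59). Without control 2 the difference was -0.58 (SE 0.60, 95% interval -1.96 to 0.80).

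The second Cd79b probe was detected on 2 of 4 VP16LXRa and 3 of 4 control arrays. It read 4.55, 5.81, 4.65 and 5.07 in VP16LXRa 5 to 8, against 5.22, 10.10, 4.72 and 7.37 in controls 1 to 4. Its difference was -1.83 (SE 1.03), and -0.75 (SE 0.62) without control 2. Both probes placed control 2 first and control 4 second. They disagreed on VP16LXRa 5, which was the highest VP16LXRa array by the first probe and the lowest by the second.

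**Figure D1:**
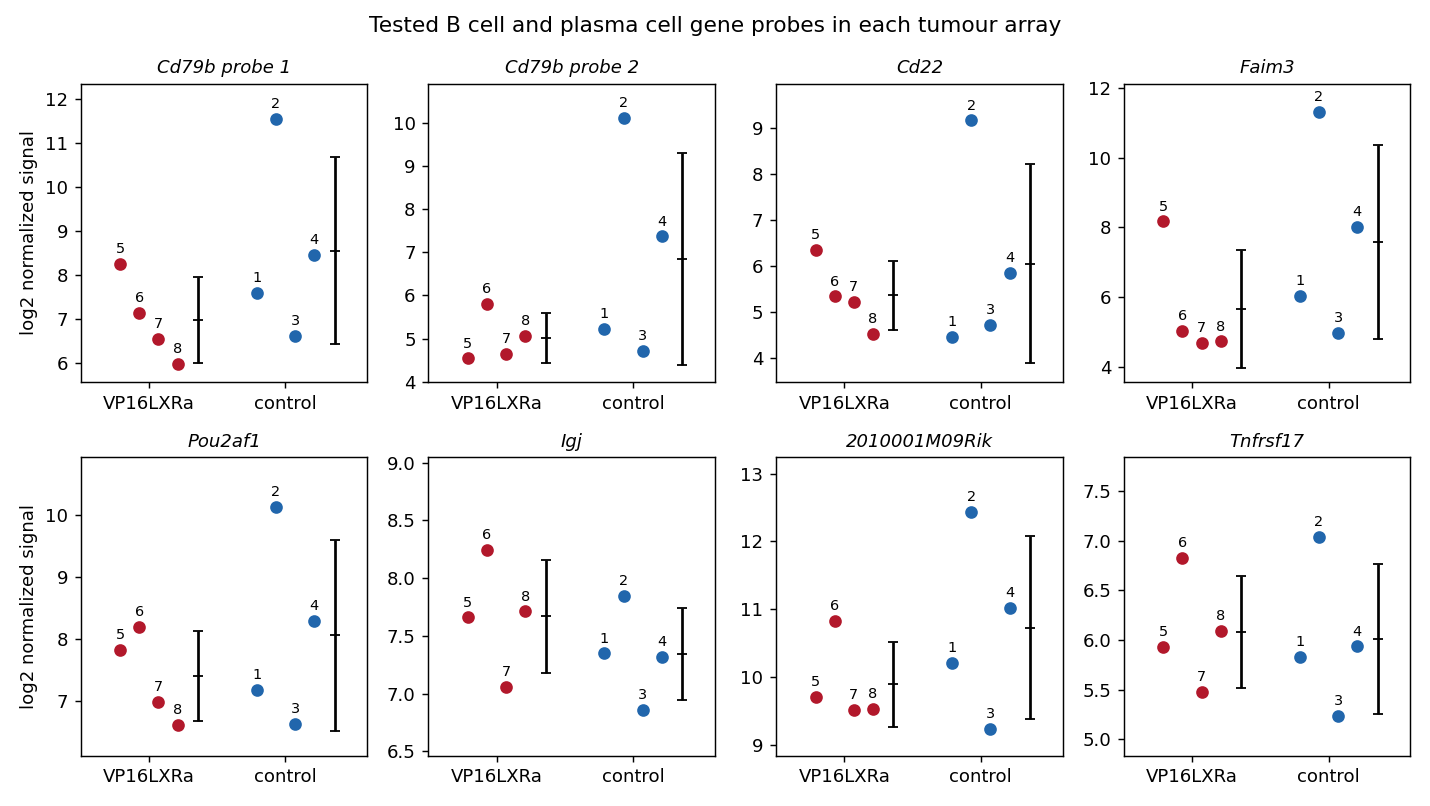
Log2 normalized signal of the 8 tested probes (y axis, a separate range in each panel) in the VP16LXRa arrays (red) and the control arrays (blue), numbered as in the labels, with black bars for the group mean ± SD (n = 4). Control 2 is the highest array in every panel but that of Igj, where VP16LXRa 6 is at 8.25 and control 2 at 7.84.

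No probe carried the symbol Cd79a, the partner chain. One probe of the table, LOC100047815, is annotated as a predicted gene similar to the CD79A antigen; it is outside the set and was chosen after its annotation was seen. It read 8.56, 6.83, 5.89 and 6.42 in VP16LXRa 5 to 8, against 7.34, 10.15, 6.00 and 7.41 in controls 1 to 4. Control 2 was the highest array, as for both Cd79b probes, and VP16LXRa 5 the second. The difference was -0.80 (SE 0.86), and 0.0080 (SE 0.64) without control 2.

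Faim3, the IgM receptor, had the widest spread of the set in both groups. It read 8.18, 5.04, 4.70 and 4.74 in VP16LXRa 5 to 8, against 6.03, 11.32, 4.98 and 8.01 in controls 1 to 4. Control 2 lay 3.14 above the next array (8.84-fold). VP16LXRa 5 and control 4 formed a middle level, and the remaining 5 arrays were between 4.70 and 6.03. The probe was not detected in VP16LXRa 7, VP16LXRa 8 and control 3, where its levels were 4.70, 4.74 and 4.98. The means were 5.66 ± 1.68 in VP16LXRa and 7.58 ± 2.79 in control tumours (SD, n = 4 each), a difference of -1.92 (SE 1.32). It was -0.68 (SE 0.99) without control 2, -2.76 (SE 1.28) without VP16LXRa 5, and -1.52 (SE 0.68, adjusted p = 1.000 with limma) without either.

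Cd22 had 3 probes, which differed in how many arrays they were detected on. The tested probe was detected on 3 of 4 VP16LXRa and 2 of 4 control arrays. It read 6.36, 5.34, 5.23 and 4.53 in VP16LXRa 5 to 8, against 4.46, 9.17, 4.73 and 5.85 in controls 1 to 4. Control 2 was 2.81 above the next array, VP16LXRa 5, and the lowest array of all was control 1. The difference was -0.68 (SE 0.94) with all arrays. It turned to 0.36 (SE 0.49) without control 2 and was 0.025 (SE 0.42) without control 2 and VP16LXRa 5.

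The second Cd22 probe was detected in control 2 alone, at a level of 7.68, where the other 7 arrays were between 4.54 and 4.97. Its group means were 4.66 in VP16LXRa and 5.49 in control tumours. Since only control 2 detected it, the difference between these means rests on that array and is not read as a group difference. The probe was not tested. The remaining Cd22 probe was detected on no array and had levels from 4.32 to 4.85. The tested and the undetected probe are annotated to transcript variant 2 of Cd22, and the probe detected in control 2 alone to transcript variant 1.

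Ms4a1, the CD20 gene, was near the background on nearly every array and was not tested. Its probe was detected in VP16LXRa 5, with a bead signal of 135.9 and a detection p-value of 0.0351, and in control 2, with 169.8 and 0.00125. Levels were 5.35, 4.41, 4.42 and 4.82 in VP16LXRa 5 to 8, against 4.53, 5.94, 4.44 and 4.82 in controls 1 to 4. The arrays that detected it, control 2 and VP16LXRa 5, are also the first and second for Cd22 and Faim3.

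Pou2af1, the octamer coactivator found in both cell types, was detected on all 8 arrays. It read 7.82, 8.19, 6.98 and 6.62 in VP16LXRa 5 to 8, against 7.18, 10.12, 6.63 and 8.29 in controls 1 to 4. Control 2 was 1.83 above the next array (3.55-fold), a smaller gap than for Cd79b, Faim3 and Cd22. The means were 7.40 ± 0.73 in VP16LXRa and 8.06 ± 1.54 in control tumours (SD, n = 4 each). The difference was -0.65 (SE 0.71) with all arrays and 0.035 (SE 0.50, 95% interval -1.12 to 1.19) without control 2.

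**Figure D2:**
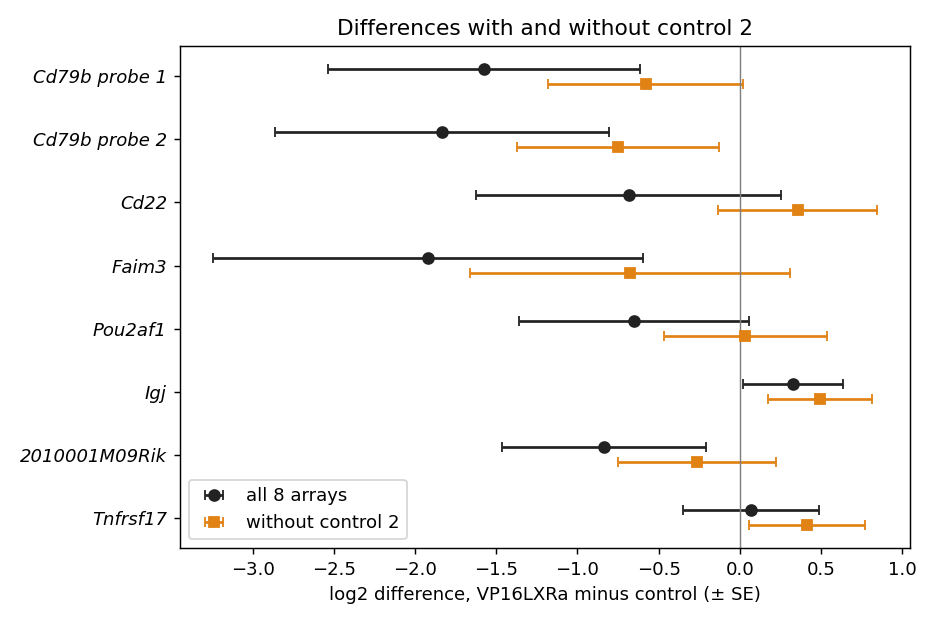
Log2 difference (x axis, VP16LXRa minus control, points with SE bars) of the 8 tested probes with all 8 arrays (black circles) and without control 2 (orange squares). Leaving out control 2 moved every estimate upward, from -1.58 to -0.58 for the first Cd79b probe and from 0.33 to 0.49 for Igj.

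Among the plasma cell genes the median log2 difference was 0.071, and 0.41 without control 2, with 2 of the 3 tested genes higher and 1 lower in both cases. Igj, the J chain, was detected on all 8 arrays. It read 7.66, 8.25, 7.05 and 7.71 in VP16LXRa 5 to 8, against 7.35, 7.84, 6.86 and 7.31 in controls 1 to 4. All 8 values lay within a narrow range, with VP16LXRa 6 on top and control 2 second. The means were 7.67 ± 0.49 in VP16LXRa and 7.34 ± 0.40 in control tumours (SD, n = 4 each), a difference of 0.33 (SE 0.31, 95% interval -0.37 to 1.02). Without control 2 it was 0.49 (SE 0.32, unadjusted p = 0.159 from limma), and without VP16LXRa 6 it was 0.13.

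Tnfrsf17, the plasma cell survival receptor BCMA, was also detected on all 8 arrays. It read 5.93, 6.83, 5.47 and 6.09 in VP16LXRa 5 to 8, against 5.83, 7.04, 5.23 and 5.94 in controls 1 to 4. Control 2 and VP16LXRa 6 were the highest, 0.21 apart, and the other 6 arrays were between 5.23 and 6.09. The difference was 0.071 (SE 0.42), 0.41 (SE 0.36) without control 2 and -0.18 (SE 0.42) without VP16LXRa 6.

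2010001M09Rik, which helps assemble secreted immunoglobulin, was detected on all 8 arrays. It read 9.70, 10.83, 9.51 and 9.53 in VP16LXRa 5 to 8, against 10.21, 12.44, 9.24 and 11.02 in controls 1 to 4. Control 2 was 1.42 above the next array, control 4 (2.67-fold), and VP16LXRa 6 came after these. The means were 9.89 ± 0.63 in VP16LXRa and 10.73 ± 1.35 in control tumours (SD, n = 4 each), a difference of -0.84 (SE 0.63). Without control 2 it was -0.27 (SE 0.49, 95% interval -1.38 to 0.85).

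Control 2 was the highest of the 8 arrays for 7 of the 8 tested probes, where it was so for 11.3% of all tested probes. It lay at least 1 log2 unit above each of the other 7 arrays for 6 of the 8, against 1.38% of all tested probes. These counts describe 1 array and carry no test. Relative to the mean of the other 3 controls, control 2 was higher by 4.98 for Faim3, 4.15 for Cd22, 3.98 and 4.33 for the Cd79b probes, 2.75 for Pou2af1, 2.28 for 2010001M09Rik, 1.38 for Tnfrsf17 and 0.67 for Igj. Faim3 and the second Cd79b probe were not detected in control 3, nor Cd22 in controls 1 and 3, so these values are measured against levels that include background. The excess was larger for each tested B cell gene than for any plasma cell gene of the set.

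The arrays were not ordered alike by the B cell and the plasma cell genes. A score was formed as the mean log2 deviation from the 8-array mean. The B cell score was 0.69, -0.53, -1.09 and -1.49 in VP16LXRa 5 to 8, against -0.64, 3.58, -1.22 and 0.70 in controls 1 to 4. The plasma cell score was -0.19, 0.68, -0.61 and -0.18 in VP16LXRa 5 to 8, against -0.16, 1.16, -0.84 and 0.14 in controls 1 to 4. VP16LXRa 5 was thus among the higher arrays for the B cell genes and VP16LXRa 6 for the plasma cell genes.

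**Figure D3:**
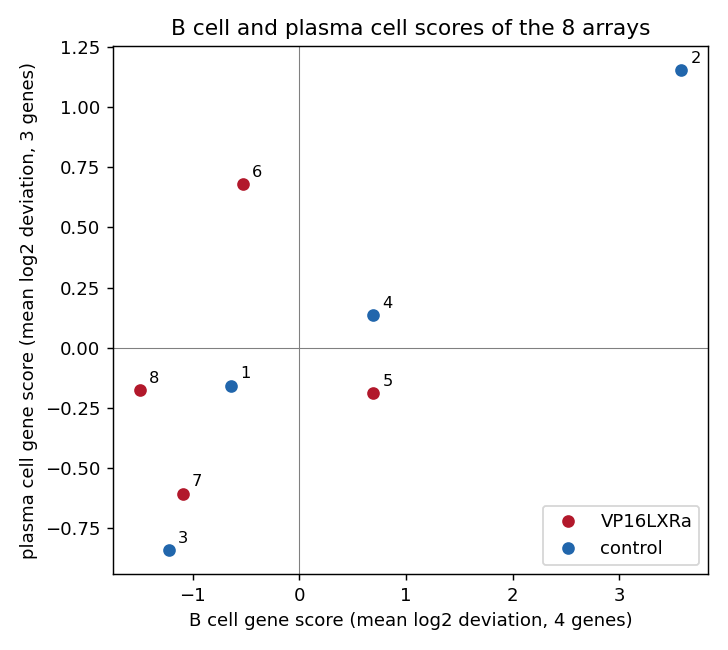
Plasma cell gene score (y axis, 3 genes) against B cell gene score (x axis, 4 genes), both as mean log2 deviation from the 8-array mean, with 1 point per array, red for VP16LXRa and blue for control, numbered as in the labels. Control 2 lies at 3.58 and 1.16, and VP16LXRa 6 has the second highest plasma cell score, 0.68, at a B cell score of -0.53.

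Members were also set against each other over the 7 arrays without control 2, as a description with no test, since all values share these arrays and their normalization. The most alike pair was Igj and Tnfrsf17, with a Pearson r of 0.97. Faim3 and the brighter Cd79b probe had an r of 0.93, and Pou2af1 and 2010001M09Rik one of 0.86. The plasma cell gene 2010001M09Rik also had an r of 0.87 with the second Cd79b probe and 0.61 with the brighter one. Its r was 0.67 with Tnfrsf17, 0.50 with Igj, 0.41 with Faim3 and 0.32 with Cd22. The members thus did not separate cleanly into B cell and plasma cell genes. Between the antigen receptor gene and the plasma cell pair r was low, 0.10 for the brighter Cd79b probe with Igj and 0.15 with Tnfrsf17. The 2 Cd79b probes themselves had an r of 0.51.

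Other B cell genes were taken from a list of 25, of which 17 were tested. None passed the threshold with limma, and 0 had an unadjusted p under 0.05. Of the 17, 16 were lower in VP16LXRa tumours, with a median difference of -0.80, and 11 were lower without control 2, with a median of -0.098. Without control 2 and VP16LXRa 5, 13 were lower, with a median of -0.36. Control 2 was the highest array for 14 of the 17 and led by at least 1 log2 unit for 12. Their score was -0.73 to 0.16 in the VP16LXRa arrays, against -0.74 to 0.16 in controls 1, 3 and 4 and 2.06 in control 2.

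The largest differences in this list were those of Fcrla, Btk and Tnfrsf13c. Fcrla, an intracellular Fc receptor-like protein of B cells, read 7.05, 6.03, 5.41 and 5.21 in VP16LXRa 5 to 8, against 6.51, 10.02, 5.83 and 6.40 in controls 1 to 4. Its difference was -1.26 (SE 0.86), and -0.32 (SE 0.45) without control 2. Btk, the kinase downstream of the antigen receptor, differed by -1.19 (SE 0.60), and by -0.51 (SE 0.29) without control 2. Tnfrsf13c, the BAFF receptor of mature B cells, differed by -1.15 (SE 1.02) and by -0.12 (SE 0.67) without control 2. Ly6d, Blnk and Ralgps2 were the members not highest in control 2. Ly6d, the brightest of the list, read 10.04, 10.60, 11.86 and 7.44 in VP16LXRa 5 to 8, against 9.21, 9.64, 8.31 and 10.88 in controls 1 to 4. Blnk was highest in control 1, at 8.32, and was at 7.18 in control 2 and 4.50 in VP16LXRa 5. Its difference was -1.05 (SE 0.65), and -1.16 (SE 0.73) without control 2. Ralgps2 was highest in VP16LXRa 8, with a difference of -0.054 (SE 0.33). Pax5, a transcription factor of the B lineage, was detected on no array.

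Other plasma cell genes were taken from a list of 17, of which 13 were tested and 0 passed. Of the 13, 9 were lower in VP16LXRa tumours, with a median of -0.10, and 7 were lower without control 2, with a median of -0.027. Irf4, a transcription factor of plasma cell differentiation, read 6.18, 7.01, 5.70 and 6.54 in VP16LXRa 5 to 8, against 7.09, 8.66, 5.53 and 6.42 in controls 1 to 4. Control 2 was 1.57 above the next array. The difference of Irf4 was -0.57 (SE 0.60), and 0.011 (SE 0.44) without control 2. Xbp1, which drives the secretory programme of plasma cells and of secretory epithelium, was the brightest member and differed by -0.14 (SE 0.22). Derl3 and Edem1, both of endoplasmic reticulum-associated degradation, differed by -0.52 (SE 0.32) and -0.66 (SE 0.46). VP16LXRa 5 was the lowest array for both, with Edem1 at 4.69 there and at 6.62 to 7.08 on the other 7 arrays, and Derl3 at 4.64 there and at 5.30 to 6.46 on the others. The score of the list ran only from -0.15 to 0.042 in VP16LXRa arrays and from -0.12 to 0.31 in control arrays, with control 2 the highest. Epithelial cells also express several of these genes. No probe had a symbol of an immunoglobulin heavy or light chain, so antibody transcripts themselves were not analysed here.

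Genes of lymphoid follicle organisation followed the B cell genes in control 2. Of 9 tested of 16, 8 were lower in VP16LXRa tumours, with a median of -0.57, and 7 without control 2, with a median of -0.032, and 0 passed. Without control 2 and VP16LXRa 5, 8 were lower, with a median of -0.25. Cxcl13, the chemokine that draws B cells into follicles, read 8.62, 6.88, 6.31 and 6.34 in VP16LXRa 5 to 8, against 7.25, 11.90, 5.44 and 9.08 in controls 1 to 4. Its order of arrays, with control 2 first, then control 4 and VP16LXRa 5, was the one seen for the top 3 arrays of the brighter Cd79b probe. The difference was -1.38 (SE 1.21), and -0.22 (SE 0.87) without control 2. Cxcr5, the receptor of Cxcl13 and also a member of the B cell list, differed by -0.80 (SE 0.73), and by -0.032 (SE 0.44) without control 2. Ltb, lymphotoxin beta, differed by -1.48 (SE 0.68), and by -0.78 (SE 0.44) without control 2. Ccr7, a chemokine receptor of lymphocytes, was detected in control 2 alone and was not tested. The brightest member, Tnfsf13b (BAFF), differed by -0.018 (SE 0.36).

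M cell and follicle epithelium genes had a score of 0.78 in VP16LXRa 5 and 0.75 in control 2, with the other 3 VP16LXRa arrays between -0.67 and -0.24 and the other 3 controls between -0.52 and 0.44. Of 8 tested, 5 were lower in VP16LXRa tumours with and without control 2, with medians of -0.38 and -0.024. Without VP16LXRa 5, 7 of the 8 were lower, with a median of -0.60, and without both arrays 7 were, with a median of -0.41. Ccr6, a chemokine receptor of B cells and other follicle cells, read 8.10, 5.90, 5.64 and 5.72 in VP16LXRa 5 to 8, against 7.05, 10.02, 5.19 and 6.85 in controls 1 to 4. Spib, a transcription factor of both M cells and B cells, differed by -0.64 (SE 0.49), and by -0.17 (SE 0.34) without control 2. Gp2, a receptor on M cells, was at 7.39 in VP16LXRa 5, against 7.82 in control 2 and 8.06 in control 4, and between 4.99 and 5.94 on the other 5 arrays. Of the 8 tested genes of IgA transport and induction, 6 were lower with all arrays and 5 without control 2, with a median of -0.12 in both cases. In that list Tgfb1 differed by -0.58 (SE 0.28), Aldh1a1, a retinaldehyde dehydrogenase, by -0.63 (SE 0.77), and Ccl25, the chemokine of small intestinal epithelium, by 0.43 (SE 0.35).

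Markers of other cell types moved with control 2 to differing degrees, and their part in the levels of the B cell and plasma cell genes was not tested. Of 10 tested T cell markers, 9 were highest in control 2, and their score was 1.30 there, against -0.74 to 0.64 in the VP16LXRa arrays and -0.91 to 0.11 in the other controls. Cd4 was detected on 2 arrays and Cd8a on none, whereas Cd8b1 and Cd3e were detected on all 8. Of 8 tested MHC class II genes, 5 were highest in control 2, with a score of 1.26 there, against -0.54 to -0.029 in the VP16LXRa arrays and -0.56 to 0.55 in the other controls. H2-Ob, a class II gene of B cells, read 6.57, 4.48, 5.32 and 4.75 in VP16LXRa 5 to 8, against 6.58, 9.81, 5.41 and 6.62 in controls 1 to 4, a difference of -1.83 (SE 0.87), and -0.93 (SE 0.54) without control 2.

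Macrophage and dendritic cell markers had a score of 0.40 in control 2, with the other 7 arrays between -0.62 and 0.43. Ileal enterocyte markers, 6 tested, were also highest in control 2 as a list, at 1.05. The intestinal epithelium score was -0.18 in control 2, and the endothelial score 0.13, neither of them the highest or the lowest. Smooth muscle markers had a score of 0.66 in control 2 and -2.78 in control 3, the array with the lowest plasma cell score. All 8 tested smooth muscle markers were higher in VP16LXRa tumours on average, with a median difference of 1.10, and of 1.49 without control 2. Their score was 0.073 to 1.04 in the VP16LXRa arrays, 0.43 in control 1 and -0.52 in control 4. The size of the smooth muscle difference thus depended on control 3. The endothelial median was 0.21, with 7 of 9 higher. Control 3 also had the lowest endothelial score, -1.07, against 0.074, 0.13 and 0.37 in controls 1, 2 and 4. In the VP16LXRa arrays that score was -0.42 to 0.52. Of the 10 epithelial markers 9 were lower, with a median of -0.20. The T cell median was -0.24, with 8 of 10 lower, and 0.088 without control 2, with 3 lower. The medians of the macrophage and dendritic cell, MHC class II and ileal enterocyte lists were -0.17, -0.41 and -0.10. Of all these lists, with 6 to 10 tested genes each, 0 members passed the threshold with limma. An unadjusted p under 0.05 was reached by 1, Cdh5 of the endothelial list, which was detected on 4 arrays. The share over all tested probes was 2.53%.

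**Figure D4:**
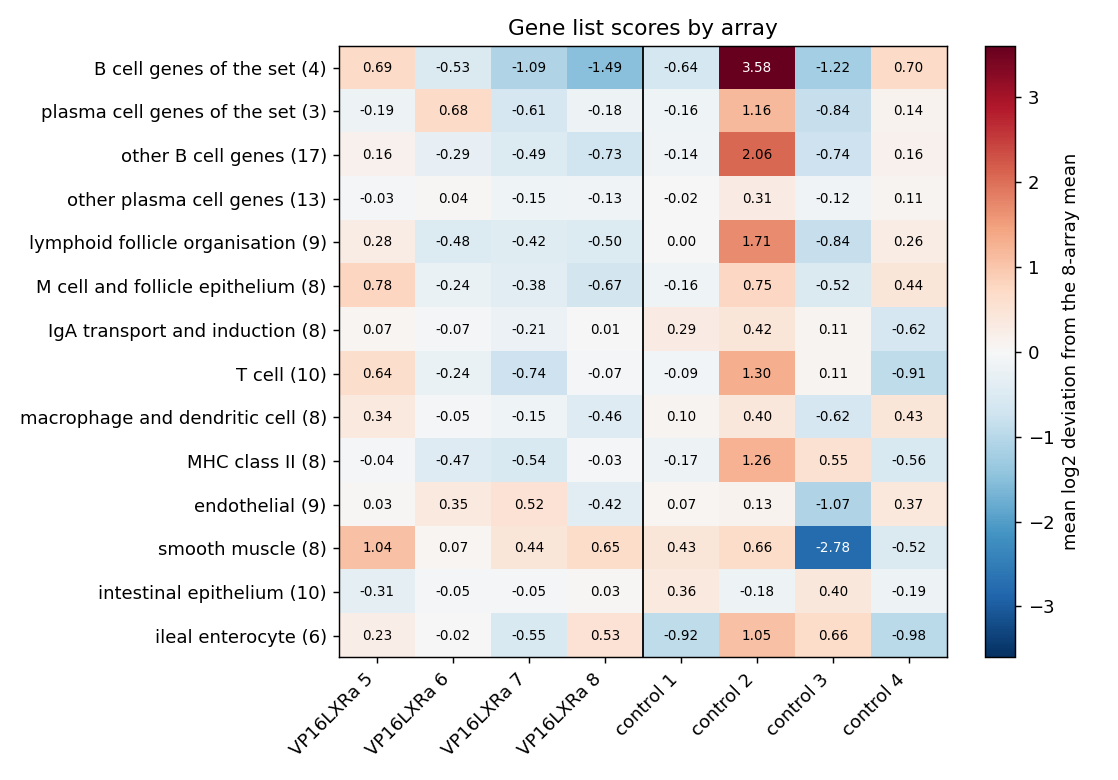
Score of each gene list (rows, with the number of tested genes) on each array (columns, VP16LXRa left of the line and control right of it), as mean log2 deviation from the 8-array mean, red above and blue below it. Control 2 has the highest score of the 8 arrays for the B cell genes of the set (3.58), the other B cell genes (2.06), the follicle genes (1.71) and the T cell markers (1.30), among others.

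Genes outside the set were also ranked by how closely they followed the mean of its 7 tested genes over the arrays, by Pearson r and with no test. Over all 8 arrays the 10 nearest were Ly86, Cd53, Slamf8, Cd83, Napsa, Rasgrp1, Tnfrsf13c, Myo1g, Cxcl13 and Gimap6, with r between 0.973 and 0.982. All 10 were highest in control 2, so this likeness rests on that array. Ly86 read 7.51, 7.40, 6.35 and 6.71 in VP16LXRa 5 to 8, against 7.27, 9.85, 6.40 and 7.48 in controls 1 to 4. Without control 2, over 7 arrays, the 10 nearest were Slc35b4, Arl6ip4, Trim11, Hsd11b1, 5730593F17Rik, Ccl11, LOC100047028, Mmp3, Npm3-ps1 and Cp, with r between 0.972 and 0.991. The 2 groups of 10 shared 0 genes. With the B cell genes ranked apart, Slamf8 and Cd86 were among the 10 nearest both over 8 arrays, with r of 0.995 and 0.987, and over 7, with 0.985 and 0.979. With the plasma cell genes apart, Evi2a and Ly6c1 were. In the pooled ranking over 7 arrays control 2 was highest for 1 gene, and Mmp3, a matrix metalloproteinase, was at 8.55 in VP16LXRa 5 and 8.81 in control 4, against 5.26 in control 2.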

How the data were processed

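Per the file headers, the authors deposited a linear intensity, the bead signal, for each of 25697 probes on 8 arrays. Each signal has a deposited detection p-value beside it. The submitters' processing notes name GenomeStudio and no version. The second table the authors deposited holds processed intensity values. Its values fall below 0 and its columns share their upper quantiles, as after background subtraction and quantile normalization, a step no label records. It served as an alternative with a floor of 16. Neither chip nor genome build is named in the labels.

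From the bead signals, limma 3.58.1 (R 4.3.3) computed normexp background correction with inferred negative controls (offset 16), quantile normalization and log2 values. Tested probes had detection p-values below 0.05 on 4 or more arrays. The model was lmFit with eBayes, two-sided, for VP16LXRa minus control, with Benjamini-Hochberg adjustment over 13426 probes. For each gene the brightest tested probe was used. Symbols were updated through RefSeq names of GRCm38.p6, 20733 probes by symbol and 3872 by synonym, with 1092 unmatched. The test was tried on simulated data. Groups came from the titles.

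The members and lists were chosen with earlier results of these data known. Named genes are all member probes, the 3 tested genes of each list with the largest absolute difference and its brightest one, and the 10 nearest by correlation, with and without control 2. The same ranking for the B cell and plasma cell genes apart is outside this rule. Not every gene under this rule is described. LOC100047815, Blnk, Ralgps2 and genes named only for where they were detected were picked after their values were seen. Alternatives covered each array left out, background correction, offset, normalization, filter, array weights, variance prior and probe choice. The number of arrays limits the precision.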

Additional observations from a re-analysis of the deposited data

Results flagged for a closer look

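An array far from the other 3 of its group was looked for in 52 sets of 4 values, and 4 sets had one, where chance gives about 2.6. VP16LXRa 5 was far above the rest of its group for Faim3, at 8.18 against 4.70 to 5.04 in VP16LXRa 6 to 8, and for the follicle organisation score, at 0.276 against -0.50 to -0.42. VP16LXRa 6 was far above its group for 2010001M09Rik, at 10.8 against 9.51 to 9.70 in the other 3. Control 2 was far above its group for the second Cd22 probe, at 7.68 against 4.56 to 4.97 in the other 3. For every tested probe but that of Igj, control 4 lay between control 2 and the other 2 controls.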

How the results depend on the processing

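No paired analysis was possible because no replicate number occurs in both groups. No member probe passed the threshold under any of the 19 alternatives that tested single probes, and the lowest adjusted p from limma was 0.760. Of 148 probe results under alternatives, 143 kept their direction and 5 turned, Cd22 to 0.36 and Pou2af1 to 0.035 without control 2, Cd22 to 0.025 without control 2 and VP16LXRa 5 (an alternative chosen after seeing the data), and Tnfrsf17 to -0.18 without VP16LXRa 6 and -0.19 without control 3. Leaving out single arrays, Cd22 ran from -1.21 (without control 1) to 0.36, Pou2af1 from -1.13 (without control 3) to 0.035 and Tnfrsf17 from -0.19 to 0.41. The B cell median ran from -1.67 (without control 3) to -0.27 (without control 2), the plasma cell median from -0.19 (without control 3) to 0.41 (without control 2), and the number of the 7 tested genes that were lower from 3 (without control 2) to 6. With probes detected on all 8 arrays, 3 of 5 tested genes were lower. Over the other alternatives the B cell median ran from -1.58 to -0.55 and the plasma cell median from -0.29, with Pou2af1 counted there, to 0.47. Over the whole table the number of probes called was 0 to 2 with single arrays left out, 1 with cyclic loess, 2 with array weights and 1 without control 2 and VP16LXRa 5. Probes near the background limit Ms4a1, Cd22, Faim3 and the second Cd79b probe.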
